A study of Mus musculus with 4 samples.

Results

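Secreted proteins of mucosal defence and of surfactant were described in the mouse middle ear as a set of 10 genes, namely Pigr, Bpifa1, Bpifb1, Scgb1a1, Scgb3a1, Scgb3a2, Lyz1, Reg3g, Sftpb and Sftpd. The set comprised every non-control probe whose target transcript carries 1 of these symbols, in both channels of all arrays. It came to 11 of the 39429 probes on the array and to 9 of the 10 genes, since no probe was matched to Scgb3a2. Of the 9 genes, 8 were well above background throughout, that is in each channel of each array, and Sftpb was so in neither channel of any array.

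The air-filled middle ear is lined by an epithelium continuous with that of the upper airway, in which ciliated and secretory cells keep a thin film of fluid free of microbes. Secretory cells release lysozyme, bactericidal/permeability-increasing (BPI) fold proteins and small secretoglobins into this film, and they carry immunoglobulin A across the cell layer with the polymeric immunoglobulin receptor. Surfactant proteins, best known from the lung, lower surface tension or bind microbes, and some of them are also made in the Eustachian tube.

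RNA of dissected middle ears was compared on 4 two-colour arrays of 1 slide. The tissue that the study harvested was the area of the temporal bone with the middle ear in it. By the source names in the labels, each array set RNA of ears exposed to diesel exhaust particles (DEPs), in Cy5 (red), against RNA of control ears in Cy3 (green). The animals were male BALB/c mice aged 6 to 10 weeks, of which the study used 9, and those exposed inhaled DEPs for 1 h a day on 5 days and were killed on day 14. The labels call the arrays biological replicates without giving the mice behind an extract, so p-values measure the spread between these arrays. Exposure and dye cannot be told apart, as no array had the dyes swapped. The source names were followed although other label fields list both treatments under the red channel. The extracts were bulk tissue, in which fewer cells of a type and less RNA per cell cannot be told apart. The array number limits the precision, and no spot was saturated. Signals were corrected within an array only, so that their spread and order between arrays depend on how arrays are scaled.

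All log2 ratios set the DEP channel over the control channel, and this direction is opposite to the one in which the study describes the genes it names. The ratios of those genes are not given here. The study's qRT-PCR had the direction of its text, with CHRM1 and EPO increased and ESR1, SOS1, CD4 and IFNA1 decreased. Which direction holds for the members was not tested. With the channels exchanged, every sign given here turns. The mean log2 ratio was below 0 for 7 of the 9 members, against 45.8% of all 25694 genes tested, and the 2 above 0 were Bpifa1 and the near-background Sftpb. The 2 members past 2-fold, both lower in the DEP channel, were Lyz1, with -1.32 ± 1.11 (SD over 4 arrays), and Pigr, with -1.08 ± 0.64, where 4.37% of all genes were past 2-fold in that direction. These 2 genes also had an unadjusted p under 0.05 in limma's moderated test, as did 8.66% of all genes in that direction. After Benjamini-Hochberg adjustment over all probes in limma, 0 of 9 members were called at a p under 0.05, and 0% of all genes were. Of all genes, 4800 (18.7%) had an unadjusted p under 0.05, and an ordinary least-squares test called 0 genes after adjustment. No member passed the adjusted test, and the members' ratios are therefore given as values.

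The arrays differed in where the members lay, as the plot of ratios by probe shows. On array 3 the ratio was below 0 for 6 of the 8 members above background, and the same number were past 2-fold lower. On array 2, 6 of the 8 were above 0, and Bpifa1, Bpifb1, Scgb3a1, Pigr, Reg3g and Lyz1 had their highest ratio there. Arrays 1 and 4 each had 7 members below 0. The median log2 ratio of the 8 members was -0.45, 0.27, -1.19 and -0.70 on arrays 1 to 4, and the median of all genes measured as fully lay between -0.01 and 0.08. The median SD between arrays was 0.79 over the 8 members and 0.28 over the 18347 genes that were above background throughout.

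**Figure D1:**
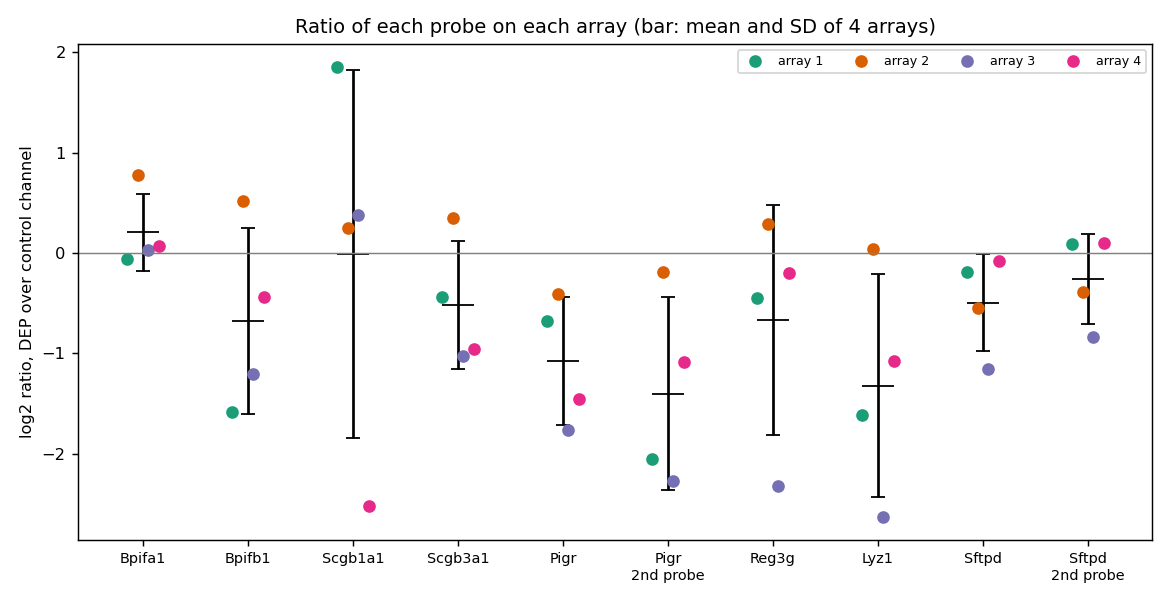
Log2 ratio (DEP over control channel) of each probe of the 8 members above background on arrays 1 to 4 (points), with the mean and SD over the 4 arrays (bars). Pigr lies below 0 on all 4 arrays, whereas Scgb1a1 runs from 1.86 on array 1 to -2.53 on array 4.

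Pigr, the receptor that carries polymeric immunoglobulin A through the epithelial cell and is shed with it as secretory component, was lower in the DEP channel on every array. The processed signal of its brightest probe (A_55_P1960999) was 13217, 10356, 11448 and 13747 in the DEP channel of arrays 1 to 4. In the control channel it was 21093, 13728, 38946 and 37679. The DEP extracts lay close together, within 1.33-fold, while the control extracts spread over 2.84-fold, and the channels overlapped only through DEP array 4 and control array 2. The log2 ratios were -0.67, -0.41, -1.77 and -1.45, a mean 2.11-fold lower level (mean -1.08, SE 0.27, unadjusted p = 0.0101 and adjusted p = 0.170 in limma). The mean was -0.85 without array 3, -0.95 without array 4 and -0.53 under normexp background correction with each array centred on its median, all short of 2-fold. That last setting also brought Scgb3a1 to -0.24, Reg3g to -0.20 and Sftpd to -0.25.

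A second Pigr probe (A_51_P239737) had the same sign on every array, with log2 ratios of -2.05, -0.19, -2.28 and -1.09 (mean -1.40 ± 0.96, SD, n = 4, adjusted p = 0.188 in limma). Its levels behaved differently, with a DEP signal of 55.0 on array 1 and of 1209 on array 4, a 22.0-fold spread, and with an 11.3-fold spread in the control channel. After quantile alignment of the arrays' mean signals (Aquantile) these spreads were 33.7-fold and 17.3-fold.

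The upstream region of Pigr is shown because Pigr was lower on all arrays by both probes. In the RefSeq sequences for build GRCm38.p6, the 250 bases before its start (chr1:130826434-130826683, plus strand) held 1 of the motifs searched, an E-box (CACGTG, its own reverse complement) 71 to 66 bases before the start, here in capitals. An E-box was present in 6.02% of 32851 promoters of the same length.
Pigr: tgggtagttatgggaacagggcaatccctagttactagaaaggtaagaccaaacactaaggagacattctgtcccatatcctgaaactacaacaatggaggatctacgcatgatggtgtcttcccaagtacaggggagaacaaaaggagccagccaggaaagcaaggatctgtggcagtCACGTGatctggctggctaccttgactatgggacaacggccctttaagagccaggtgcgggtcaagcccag

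The genes that supply immunoglobulin A or regulate Pigr were mostly on the other side of 0. Of 17 such genes with a ratio, 5 were lower and 12 higher in the DEP channel, with a median log2 ratio of 0.16 against 0.03 over all genes, and 0 of them were called after adjustment. Xbp1, a transcription factor of plasma and other secretory cells, had a mean log2 ratio of -0.12, which became 0.53 under normexp with median centring. Ccl28, a chemokine that draws immunoglobulin A-producing cells to mucosae, had 0.51 ± 0.73 (SD, n = 4), and 0.27 under normexp with loess or with median centring. Its mean was 0.26 without array 1 and 0.83 without array 3. Sdc1, a heparan sulphate proteoglycan of plasma cells and epithelia, ran from 3.31 on array 1 to -1.70 on array 4. Tnf, a cytokine that induces Pigr, had a mean log2 ratio of 0.73 from a control channel well above background on 2 arrays, and it had 0.23 under normexp with loess and 0.14 with median centring.

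Of the BPI fold proteins, Bpifa1 (probe A_51_P202331), also called SPLUNC1, is an abundant secretion of the airway that reduces surface tension and binds bacterial products. Its processed signal was 95387, 119522, 84987 and 108818 in the DEP channel and 99477, 69687, 83277 and 103626 in the control channel. The extracts lay close together, within 1.41-fold over the DEP extracts and 1.49-fold over the control extracts, and the channels overlapped. Its log2 ratios were -0.06, 0.78, 0.03 and 0.07 (mean 0.20 ± 0.39, SD, SE 0.18, adjusted p = 0.562 in limma). Array 2 stood apart from the other arrays, through a low control signal and a high DEP signal, and the mean without it was 0.013. The ratio also moved with the dye correction. After normexp background correction and centring on the array's median in place of an intensity-dependent correction, its mean log2 ratio was 1.16 (adjusted p = 0.0275 in limma), under a setting in which 11.6% of all genes were called, 2785 of them higher and 204 lower.

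Bpifb1 (A_55_P1957797), or LPLUNC1, is a longer relative made by goblet cells and submucosal glands. Its DEP signal was 96038, 177790, 124293 and 170657, and its control signal was 288263, 124039, 287508 and 231196. It was lower in the DEP channel on arrays 1, 3 and 4 and higher on array 2, where the control extract was the dimmest of the 4, and the channels overlapped. The log2 ratios of -1.59, 0.52, -1.21 and -0.44 gave a mean of -0.68 ± 0.93 (SD, SE 0.37, unadjusted p = 0.130, adjusted p = 0.380 in limma). This direction turned under normexp with median centring, to 0.53. The mean was -1.08 without array 2, -0.38 without array 1 and -0.39 under normexp with loess. Bpifa1 and Bpifb1, neighbours in 1 cluster of chromosome 2, thus had different ratios on arrays 1 and 3, a difference that was not tested.

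Of 12 other genes of the BPI fold and lipid-binding family with a ratio, 3 were above background in both channels throughout, 6 were lower and 6 higher, and the median log2 ratio was -0.09. Lbp, which presents bacterial lipopolysaccharide to immune cells, had 0.12 ± 0.21 (SD, n = 4) and Pltp, a plasma phospholipid transfer protein, 0.27 ± 0.17, which became 0.46 and 0.53 under normexp with median centring (adjusted p = 0.0467 and 0.0380 in limma). Bpifb5, whose DEP channel was well above background on 3 arrays, had -0.38 ± 0.66, with array 2 alone above 0 as for Bpifb1. Its mean was -0.19 without array 1, -0.68 without array 2, -0.23 under normexp with loess and -0.093 with median centring.

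**Figure D2:**
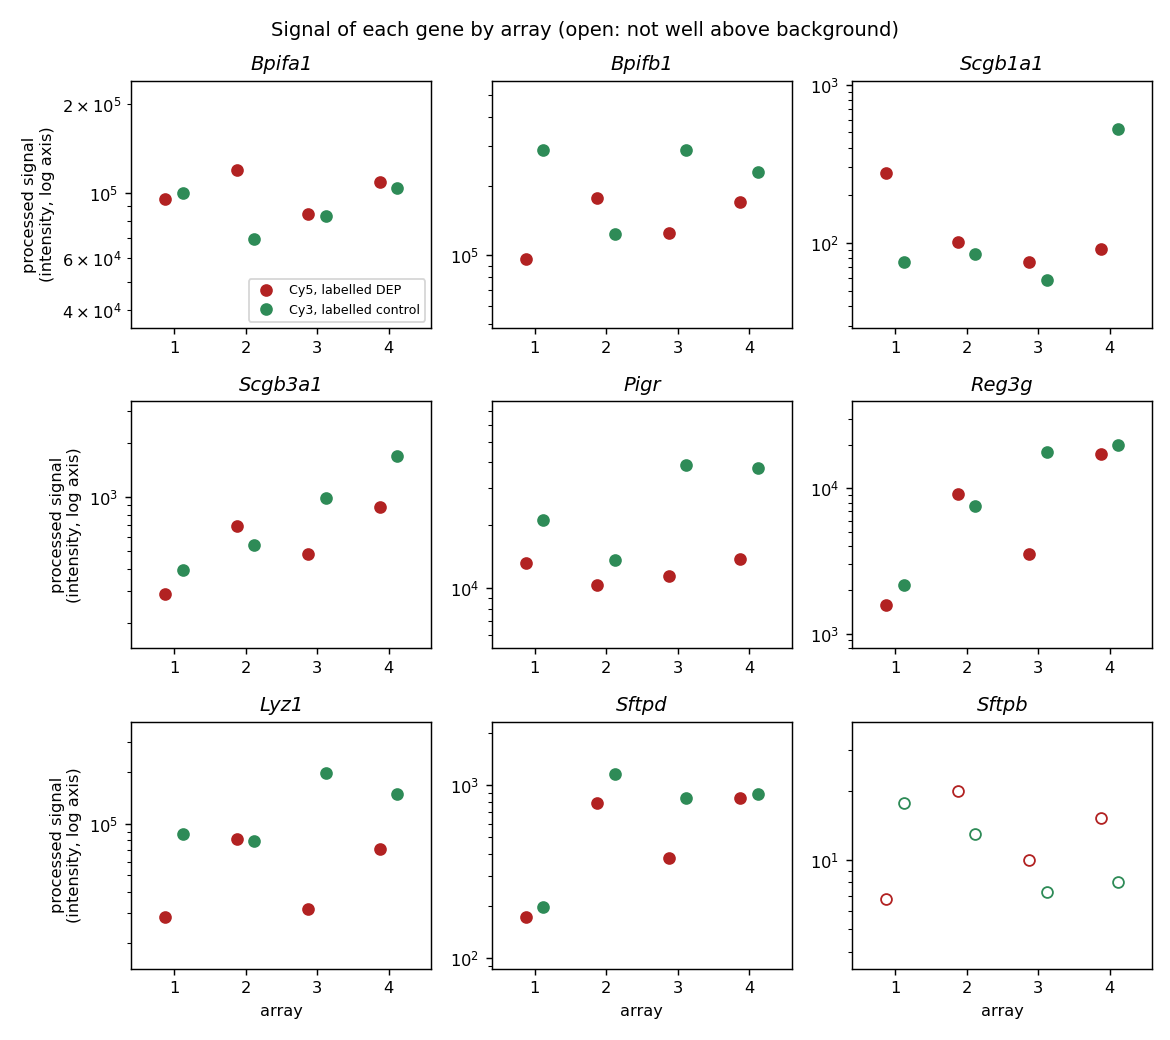
Processed signal (intensity, log axis) of the brightest probe of each measured gene by array, in the DEP channel (Cy5, red) and the control channel (Cy3, green); open points are not well above background. The signals of Reg3g, Scgb3a1 and Sftpd are lowest on array 1 in both channels, and Scgb1a1 is high in 1 extract of each group.

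The secretoglobins are small dimeric proteins of secretory airway cells, and 2 of them were each measured by 10 spots per array, which separates the error of a spot from the spread between arrays. Scgb1a1 (A_51_P128575), the club cell secretory protein, had a DEP signal of 275, 102, 75.5 and 91.5 and a control signal of 75.9, 85.6, 58.0 and 527. Of 8 extracts, only the DEP extract of array 1 and the control extract of array 4 stood out, so that the log2 ratio was 1.86, 0.25, 0.38 and -2.53. The mean of -0.01 ± 1.83 (SD, SE 0.72, adjusted p = 0.994 in limma) thus averages opposite extremes, and it was 0.83 without array 4 and -0.63 without array 1. The unflagged spots of an array had an SD of only 0.13 to 0.22, and their ratios ran from 1.68 to 2.27 on array 1 and from -2.95 to -2.34 on array 4. The ratios of these arrays thus lay apart by more than the error of a spot.

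Scgb3a1 (A_51_P110341), a secretoglobin of goblet and other secretory cells of the large airway, had a different profile. Its DEP signal was 289, 695, 486 and 877 and its control signal 392, 544, 990 and 1703. The signal was lowest on array 1 and highest on array 4 in both channels, which overlapped. The log2 ratios were -0.44, 0.35, -1.03 and -0.96 (mean -0.52 ± 0.64, SD, SE 0.27, unadjusted p = 0.108, adjusted p = 0.354 in limma), and the mean was -0.81 without array 2. The spots of an array agreed closely, with an SD between 0.040 and 0.054, so that the sign on each array was the same for all of its spots.

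**Figure D3:**
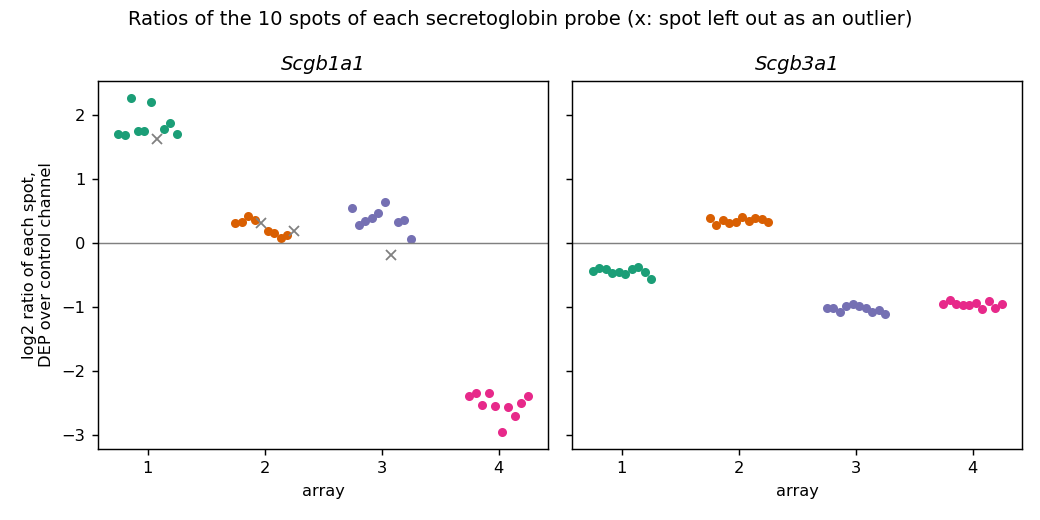
Log2 ratio (DEP over control channel) of the 10 spots of the Scgb1a1 and Scgb3a1 probes on arrays 1 to 4, coloured by array; crosses are spots left out as outliers. The spots of an array lie close together, and for Scgb1a1 the arrays range from a mean of 1.86 to -2.53.

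The upstream region of Scgb3a1 is shown because it held a forkhead motif in common with Bpifb1 and Sftpb. Its 250 bases (chr11:49663345-49663594, plus strand, GRCm38.p6, RefSeq) contained a STAT motif (TTCNNNGAA) 194 to 186 bases and a forkhead motif (TGTTTNC, here on the opposite strand) 55 to 49 bases before the start, both in capitals. Forkhead factors such as Foxa1 and Foxa2 are known regulators of secretory airway genes.
Scgb3a1: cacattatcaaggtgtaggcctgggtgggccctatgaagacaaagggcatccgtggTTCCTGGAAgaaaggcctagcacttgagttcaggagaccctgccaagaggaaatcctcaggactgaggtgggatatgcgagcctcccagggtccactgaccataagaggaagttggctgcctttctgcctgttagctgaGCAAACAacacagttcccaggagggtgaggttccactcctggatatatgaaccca
The same GCAAACA, the reverse complement of TGTTTGC, lay 43 to 37 bases before 1 of the 2 annotated starts of Bpifb1 and 88 to 82 bases before that of Sftpb. Forkhead matches on either strand were thus found in 3 of the 8 promoter entries of the members and in 17.8% of all promoters, and STAT matches in 2 of 8 and in 7.02%. No NF-kB motif (GGG and TTTCC with any 2 bases between, 1.41% of promoters) and no interferon-stimulated element (GAAA and GAAA with any 2 bases between, 2.98%) was among the 8 entries, which covered 7 of the members. A match says only that the letters occur, and nothing about binding in these extracts.

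Of 11 other secretoglobin genes listed, 5 had a ratio, and 2 of these were above background throughout. The log2 ratio averaged 0.03 ± 0.41 (SD, n = 4) for Scgb2b2 and 0.21 ± 0.27 for Scgb2b20, both with their highest ratio on array 2. The sign of Scgb2b2 turned when array 2 or array 4 was left out, and that of Scgb2b20 when its probes were averaged. None of the 5 was called after adjustment in limma.

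Lysozyme cleaves the peptidoglycan of bacterial walls. In the mouse, Lyz1 is the form of Paneth and other secretory cells, and Lyz2 is that of macrophages and neutrophils. By the brightest probe of each gene and the deposited ratio, Lyz1 (A_55_P2181738) had the mean log2 ratio farthest from 0 among the members. Its DEP signal was 28263, 81276, 31792 and 71367, and its control signal was 86652, 79280, 197376 and 150149. The DEP extracts of arrays 1 and 3 were the dimmest of all 8, the control extracts of arrays 3 and 4 the brightest, and on array 2 both extracts were alike, so that the channels overlapped. The log2 ratios were -1.62, 0.04, -2.63 and -1.07, a mean 2.50-fold lower level in the DEP channel (SE 0.44, unadjusted p = 0.0307, adjusted p = 0.234 in limma). The mean moved from -0.88 without array 3 to -1.77 without array 2, and to -0.39 under normexp with median centring.

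Lyz2 is a near-identical neighbouring copy whose transcripts could reach the Lyz1 probe and the reverse, so the values of both are uncertain. The Lyz2 probe (A_51_P321150) had log2 ratios of -1.01, -0.00, -1.004 and -0.61 (mean -0.66 ± 0.48, SD, adjusted p = 0.220 in limma), with the array nearest 0 again array 2, and 0.03 under normexp with median centring. Its signal was lowest on array 1 in both channels, at 7667 and 15493, and highest on array 4, at 34475 and 52724. The upstream regions of the pair are shown because both genes had their ratio nearest 0 on array 2 and are copies of each other. They lie on chromosome 10 (chr10:117292869-117293118, minus strand, and chr10:117282273-117282522, minus strand, GRCm38.p6, RefSeq). Of 260 aligned columns 205 were identical (78.8%), including an unbroken run of the 50 bases next to the start, in capitals. Neither contained any of the motifs searched.
Lyz1: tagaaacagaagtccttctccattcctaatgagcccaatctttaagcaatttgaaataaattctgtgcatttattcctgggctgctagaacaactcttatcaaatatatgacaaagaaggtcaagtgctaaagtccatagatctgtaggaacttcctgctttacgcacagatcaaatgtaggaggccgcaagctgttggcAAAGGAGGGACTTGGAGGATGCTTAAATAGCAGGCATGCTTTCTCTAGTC
Lyz2: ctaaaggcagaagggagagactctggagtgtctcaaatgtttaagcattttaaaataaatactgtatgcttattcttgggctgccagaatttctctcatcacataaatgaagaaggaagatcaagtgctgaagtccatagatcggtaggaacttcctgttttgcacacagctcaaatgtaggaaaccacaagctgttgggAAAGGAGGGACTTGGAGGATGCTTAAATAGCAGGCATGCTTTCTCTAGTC

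Reg3g (A_51_P354126) encodes a lectin that kills Gram-positive bacteria at the gut and airway surface. Its DEP signal was 1585, 9221, 3563 and 17328, and its control signal was 2170, 7529, 17817 and 19844. The signal spread over 10.9-fold in the DEP and 9.14-fold in the control extracts, with array 1 lowest and array 4 highest in both. After Aquantile these spreads were 16.7-fold and 13.97-fold, with the same lowest and highest arrays. The log2 ratios were -0.45, 0.29, -2.32 and -0.20, so that array 3 alone was past 2-fold, and the mean was -0.67 ± 1.14 (SD, SE 0.45, adjusted p = 0.461 in limma). Without array 3 it was -0.12. The upstream region of Reg3g (chr6:78468875-78469124, minus strand, GRCm38.p6, RefSeq) is shown because it held 2 matches to the TATA box (TATAAA on either strand), 1 of them 27 to 22 bases before the start. Such matches occurred in 2 of the 8 entries of the members and in 12.4% of all promoters; the other entry was that of Bpifa1, at 29 to 24 bases.
Reg3g: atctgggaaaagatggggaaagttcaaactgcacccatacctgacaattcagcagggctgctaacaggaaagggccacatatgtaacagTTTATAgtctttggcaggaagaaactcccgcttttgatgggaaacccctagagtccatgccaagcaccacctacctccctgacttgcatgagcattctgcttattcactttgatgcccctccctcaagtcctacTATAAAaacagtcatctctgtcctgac

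Of 6 further Reg genes listed, 2 had a ratio, and neither was above background throughout. Reg3d, a relative of Reg3g, was well above background in the DEP channel of 3 arrays and in the control channel of none, so that no fold is given. Its processed signal was 21.1 to 51.7 in the DEP and 10.7 to 25.5 in the control channel (adjusted p = 0.116 in limma). Among 18 other mucosal antimicrobial genes with a ratio, 7 were lower and 11 higher in the DEP channel, and the median log2 ratio was 0.12. Dmbt1, a scavenger receptor glycoprotein of mucosal secretions, had log2 ratios of -1.85, 0.35, -1.50 and -0.54 (mean -0.88 ± 0.99, SD, adjusted p = 0.310 in limma), again with array 2 alone above 0. That mean was 0.15 under normexp with median centring. Defb1, an epithelial beta-defensin, went from 3.73 on array 1 to -1.79 on array 4 (mean 1.05 ± 2.27, adjusted p = 0.550), the arrays on which Scgb1a1 had its highest and its lowest ratio. The Defb1 mean was 0.15 without array 1 and 1.99 without array 4. Chia1, an acidic chitinase, had 0.90 ± 1.36, led by 2.86 on array 3, and 0.24 without that array. It had 0.50 and 0.48 under normexp with loess and with median centring. S100a9, a calprotectin subunit of neutrophils, had a mean of 0.34 ± 1.13, which was -0.04 without array 3 and 1.32 under normexp with median centring.

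Of the surfactant genes, Sftpd encodes a collectin that binds sugars on microbes. By its brighter probe (A_55_P2007601) the DEP signal was 174, 794, 378 and 841, and the control signal was 199, 1162, 845 and 891. Array 1 was lowest in both channels, and the channels overlapped. All 4 log2 ratios were below 0, at -0.19, -0.55, -1.16 and -0.08 (mean -0.50 ± 0.48, SD, SE 0.21, unadjusted p = 0.0660, adjusted p = 0.296 in limma), and the mean was -0.28 without array 3. Pigr and Sftpd were the 2 members below 0 on all arrays, as 10.9% of all genes were. A second Sftpd probe (A_66_P121053) did not share the sign on every array, with 0.09, -0.39, -0.84 and 0.10 (mean -0.26 ± 0.45, SD, adjusted p = 0.512), and array 3 was lowest by both probes.

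Sftpb (A_55_P2096266), which encodes the hydrophobic protein that spreads the surfactant film, stayed near background in both channels of all arrays. Its processed signal lay between 6.75 and 19.9 in the DEP channel and between 7.25 and 17.7 in the control channel, so that no fold is given. Of 11 other surfactant and collectin genes with a ratio, 4 were lower and 7 higher, with a median log2 ratio of 0.22. Sftpc, the surfactant protein of the lung alveolus, had signals between 54.2 and 121 over all extracts. Ctsh, a protease that also processes surfactant proteins, averaged 0.21 ± 0.24 (SD, n = 4) in log2 ratio, and Colec12, a scavenger receptor collectin, had 0.31 ± 0.26. The circulating collectins Colec10 and Colec11 had 1.19 ± 1.22 and 0.54 ± 0.65, with a control channel well above background on 2 and 3 arrays. Without array 4 their means were 0.68 and 0.23. Under normexp these means were 0.19 and 0.18 with loess and 0.081 and 0.098 with median centring. None was called after adjustment in limma, although Ctsh was under normexp with median centring, at 0.67 (adjusted p = 0.0368), where Colec12 had 0.48. Sftpd thus had a mean below 0 while the median of the surfactant and collectin list was above 0, a difference that was not tested. That list also holds genes that are not collectins, such as Ctsh.

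**Figure D4:**
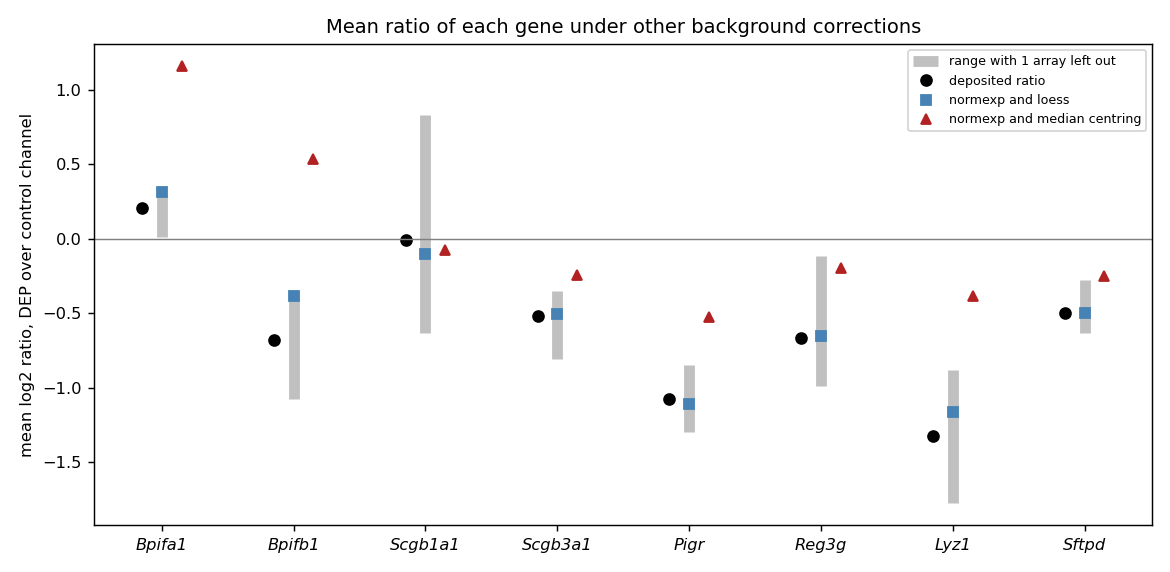
Mean log2 ratio (DEP over control channel) of each member above background from the deposited ratio (circles), after normexp and loess (squares) and after normexp and median centring (triangles), with the range when 1 array is left out (grey bars). Pigr, Lyz1, Scgb3a1, Reg3g and Sftpd stay below 0 under each of these settings, but closer to 0 under median centring, while Bpifb1 turns from -0.68 to 0.53 under median centring.

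Genes of secretory epithelium were compared with the members because these cells make most of them. Of 22 such genes with a ratio, 15 were lower in the DEP channel, with a median log2 ratio of -0.23. Of the 19 above background throughout, the median was 0.03, 0.27, -0.91 and -0.56 on arrays 1 to 4. As for the members, array 2 was the highest and array 3 the lowest, but array 1 was near 0. Muc5b, a gel-forming mucin of the airway and middle ear, had log2 ratios of -1.09, -0.49, -2.51 and -1.55 (mean -1.41 ± 0.85, SD, SE 0.34, unadjusted p = 0.00949, adjusted p = 0.167 in limma). Tff2, a trefoil peptide secreted with mucin, had -1.12, -0.40, -1.78 and -0.66 (mean -0.99 ± 0.60, adjusted p = 0.176). Agr2, a disulphide isomerase needed for mucin production, had a mean of -0.78 ± 0.84, and of -0.43 without array 3. Under normexp with median centring the means of Muc5b, Tff2 and Agr2 were -0.81, -0.23 and -0.37. From the lowest ratio to the highest, Muc5b had the arrays in the order of the brighter Pigr probe (3, 4, 1 and 2), and Tff2 had them in the order of Lyz1 and of the second Pigr probe (3, 1, 4 and 2). With 4 arrays few orders are possible, and the share of all genes with either order was not counted, so no link is drawn. Cyp2f2, a cytochrome of club cells, had 1.68, 0.87, -0.26 and -0.35 and did not follow either of these orders. Its mean was 0.49 ± 0.97, 0.089 without array 1 and 1.13 under normexp with median centring. Its ratio was highest on array 1 and lowest on array 4, as for Scgb1a1. The same held for Krt5, Ehf, Cdh1, Epcam and Aldh3a1 of this list, all with means above 0. Muc5b, Tff2 and Agr2 were instead highest on array 2. The summed signal of the secretory epithelium list was 171845, 144827, 102189 and 166239 in the DEP channel and 61901, 134785, 276124 and 302987 in the control channel. A few genes carried this sum, with Krt5, a basal cell keratin, reaching 90638 in a DEP extract and Muc5b and Tff2 reaching 97562 and 93020 in a control extract. The part of these cells in the members' ratios was not tested.

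Markers of other tissues were also present in these dissected ears. All 8 neuronal genes were lower in the DEP channel, with a median log2 ratio of -1.15 (-2.41, -1.47, -1.24 and 0.27 on arrays 1 to 4), and their summed signal was 16663 to 21274 in the DEP and 18273 to 68064 in the control extracts. Their array order differed from that of the members, since array 2 was low for neurons. The 9 neutrophil genes had medians of -1.13, 0.01, 0.59 and 0.15 and the 8 skeletal muscle genes of -0.82, -0.51, 0.73 and 0.76, with array 1 lowest in both lists. Among salivary and lacrimal gland genes, from glands that also secrete lysozyme and BPI fold proteins, 11 had a ratio, 3 of them lower, with a median of 0.26 and a summed signal of 5116 to 19666 in the DEP and 4924 to 28877 in the control extracts. For the lung alveolus 6 genes had a ratio, 2 of them lower, with a median of 0.22 and a summed signal of 8151 to 15637 in the DEP and 7910 to 14787 in the control extracts, with Sftpc, Hopx, Lamp3, Napsa and Etv5 well above background throughout, and Ager, a defining marker of alveolar type I cells, near background in both channels. The median was 0.04 for 8 olfactory and nasal genes, 0.16 for 9 macrophage genes, 0.14 for 8 genes of B and plasma cells and -0.04 for 7 genes of bone and cartilage. The summed signal of the olfactory and nasal list was 1360 to 2648 in the DEP extracts. In the control extracts it was 8724 on array 3 and 1176 to 3067 on the others. On array 3 the median of its genes above background throughout was -0.45. The part of these tissues in the members' ratios was not tested.

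**Figure D5:**
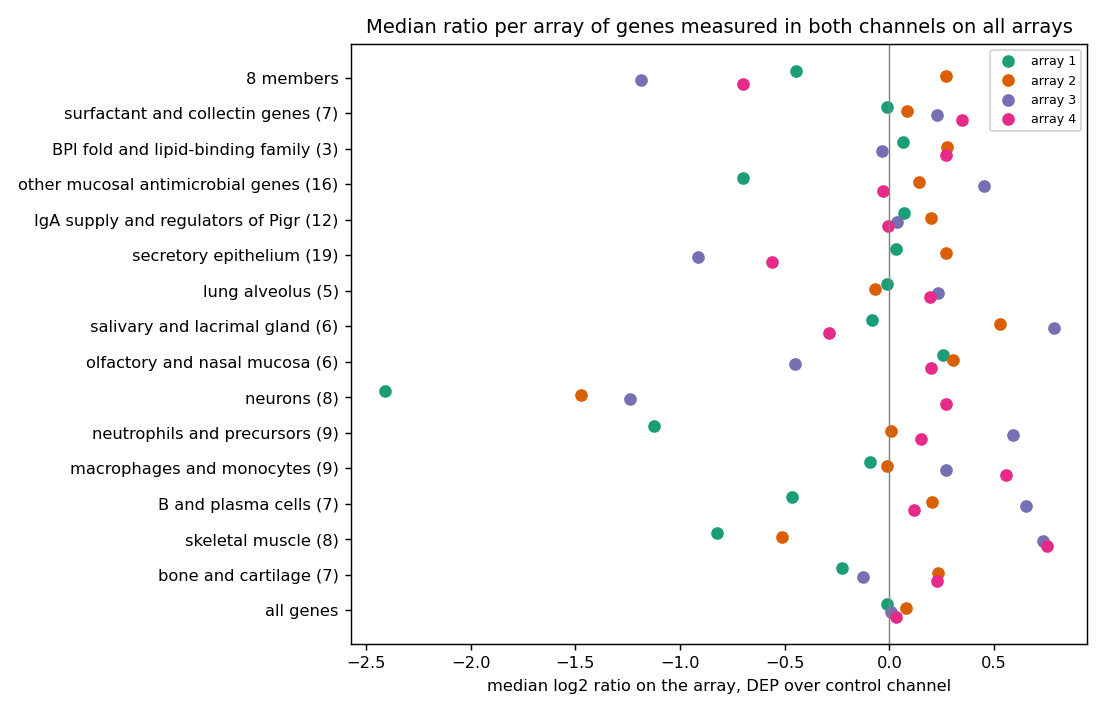
Median log2 ratio (DEP over control channel) on arrays 1 to 4 of the 8 members above background, of lists of related genes and other cell types (number of genes so measured in brackets), and of all genes. The members lie at -0.45, 0.27, -1.19 and -0.70 on arrays 1 to 4, and secretory epithelium lies at 0.03, 0.27, -0.91 and -0.56.

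The members did not form 1 profile over the 8 extracts. Against the mean of their own standardised signals, to which each contributes, Pearson's r was 0.95 for Scgb3a1, 0.88 for Lyz1, 0.86 for Reg3g, 0.73 for Pigr, 0.71 for Bpifb1 and 0.64 for Sftpd, and it was 0.32 for Bpifa1 and 0.28 for Scgb1a1. Among 18339 other genes, the 5 most like that mean included Ceacam2 (r = 0.97), P2rx4 (0.96) and Galnt6 (0.96), and the other 2 had no symbol. These correlations are descriptions over 8 signals that share 4 arrays. The mean log2 ratio was -0.28 for Ceacam2, an adhesion molecule, -0.46 for Galnt6, an enzyme that starts O-linked glycans, and -0.26 for P2rx4, an ATP-gated channel. Under normexp with median centring these means were -0.029, -0.18 and 0.12.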

How the data were processed

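Middle ear RNA was measured on 4 two-colour arrays. The authors quantified spots with Agilent Feature Extraction 10.10.1.1. The deposited processed intensity is background-subtracted and dye-normalized within the array, and the deposited log10 ratio sets Cy5 over Cy3. The members, lists and tests were chosen with earlier results of these data known. Here the ratios were converted to log2. Control spots, spots flagged as outliers (164 to 274 of 43020 per array) and spots lacking a ratio were dropped, and spots of a probe were averaged. RefSeq accessions named 27655 of 39429 probes (assembly GRCm38.p6). The brightest probe stood for a gene, and each probe with a ratio on at least 3 arrays (31577 probes) was tested against 0 with lmFit and eBayes in limma 3.58.1 (R 4.3.3), two-sided, with Benjamini-Hochberg adjustment. With 4 arrays an exact sign-flip test cannot give a p under 0.125. The scripts were tested on simulated data. Promoters (250 bases upstream) were searched on both strands, and the lysozyme pair was aligned with Biopython 1.88. Tables were made in Python 3.11.15 (numpy 2.4.6, pandas 2.3.3) and figures in matplotlib 3.10.9.

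Besides the 10 members and Lyz2, genes were named by rule. From each of 7 lists of related genes the rule took up to 3 with the largest mean ratio among those well above background in 1 channel on all arrays, and the brightest. The rule also covered 9 lists of other cell types, which are given by counts, medians and summed signals without naming their genes. Sftpc, Ager, the rest of the alveolar list, Krt5, Ehf, Cdh1, Epcam and Aldh3a1 were named after their values were seen. Finally, the 5 genes most like the members' mean profile were taken by Pearson's r. Probes well above background in neither channel of any array, such as that of Sftpb, were given no fold or mean ratio, although they count among the genes tested. Alternatives were normexp background correction (offset 50) with loess or with median centring, the authors' table of log10 ratios, filters on background, flagged spots kept, saturated spots left out, an intensity trend, ordinary least squares, averaged probes, exchanged channels and each array left out. All arrays were on 1 slide, so no batch could be tested. The study's qRT-PCR was not analysed here.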

Additional observations from a re-analysis of the deposited data

Results flagged for a closer look

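The log2 ratio of Bpifa1 on array 2 was 0.78, while the other 3 arrays lay between -0.06 and 0.07. The gap to the nearest array was 0.844 of the whole range, above Dixon's 95% critical value for 4 samples. Of 33 values tested this way 1 passed, and chance alone passes about 1 in 20.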

How the results depend on the processing

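No paired analysis was possible because the labels give 1 group of arrays, whose channels are already paired by the array. Of the 8 members above background, all kept their sign and their side of an adjusted p of 0.05 after normexp with loess (where 3 members, against 2, had an unadjusted p under 0.05, as Sftpd moved from 0.0660 to 0.0356), in the authors' table, with flagged spots kept, with saturated spots left out (none was saturated), with an intensity trend, with ordinary least squares and with averaged probes. The background filters left 8 members, as Sftpb gave no value, and 1 member above 0. Normexp with median centring, where the median of all genes was 0.12, called 2989 of 25694 genes after adjustment, against 0, and left 1 member past 2-fold and 1 called, both Bpifa1. Under it the mean log2 ratio turned to 0.53 for Bpifb1, 0.034 for Lyz2, 0.15 for Dmbt1, 0.53 for Xbp1 and 0.12 for P2rx4, and the cause was not tested. Averaging probes turned Scgb2b20 to -0.54. Ordinary least squares left 1 member with an unadjusted p under 0.05. With the channels exchanged 7 members were above 0 by construction, with a median of 0.52, and the values were -0.20 for Bpifa1, 0.68 for Bpifb1, 0.010 for Scgb1a1, 0.52 for Scgb3a1, 1.08 for Pigr, 0.67 for Reg3g, 1.32 for Lyz1 and 0.50 for Sftpd. When 1 array was left out, 1 to 4 members had an unadjusted p under 0.05 (4 without array 2, 1 without array 3 and 1 without array 4), 0 to 3 were past 2-fold (0 without array 3, 1 without array 4, 3 without array 2), and the median was -0.81 without array 2 and -0.28 without array 3. Over the arrays left out, the mean log2 ratio crossed 0 for Scgb1a1 (-0.63 to 0.83, without array 4), Scgb2b2 (-0.13, without array 2, to 0.17, and -0.014 without array 4), S100a9 (-0.039, without array 3, to 0.84), Xbp1 (-0.23 to 0.0015, without array 3) and Sdc1 (-0.19, without array 1, to 1.48). The adjusted p ranged over these alternatives, other than the exchange, from 0.115 to 0.390 for Pigr, from 0.223 to 0.454 for Lyz1 and from 0.0275 to 0.974 for Bpifa1. These values are limited by the number of arrays, by the background and dye correction (which moved Bpifa1, Bpifb1, Pigr, Lyz1, Scgb3a1, Reg3g and Sftpd), by possible cross-hybridisation of Lyz1 with Lyz2 and, for Sftpb, by signal over background.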
